A study of Mus musculus with 11 samples.

Results

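The genes described here encode carriers for sugars, monocarboxylates and organic ions in the mouse adrenal gland. They were taken by symbol: every gene of the count table whose name begins with Slc2a, Slc5a, Slc16a, Slc22a or Slco and a digit, with 10 or more counts in at least 5 of the 11 libraries. Of 23337 symbols 81 matched, and 33 met the count limit, 11 of them in the Slc2 family, 2 in Slc5, 8 in Slc16, 8 in Slc22 and 4 in Slco. One of the 33, Slc2a4rg-ps, matched by its letters alone and is annotated as a transcribed pseudogene, not as a carrier. The RNA came from adrenals of males (strain Hsd:Athymic Nude-Foxn1nu), which lack a thymus. The intact group had 5 samples and the ORX group, whose label reads orchectomized (testes removed), had 6. Mice of both groups carried VCaP cells, a human prostate cancer line, inoculated at week 0, when they were some 5 to 6 weeks old. They entered their groups at week 7 and were killed at week 15. Tumour size was not used here, nor was any record of a sham operation in the intact mice. The comparison, ORX against intact, belongs to a study of what the adrenal contributes to steroid synthesis in the mouse.

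Each family moves its own kind of small molecule. Slc2 proteins let hexoses pass down their gradient, Slc5 proteins use the sodium gradient to take up sugars, inositol and vitamins, and Slc16 proteins include the proton-linked carriers of lactate and pyruvate as well as carriers of thyroid hormone and aromatic amino acids. Slc22 proteins carry organic cations, organic anions and carnitine, and Slco proteins, the organic anion transporting polypeptides, carry bulky anions such as steroid sulfates, prostaglandins and thyroid hormone. A steroid-making cell takes up fuel, carnitine and conjugated steroids through such carriers, while its cholesterol arrives by other routes.

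Total counts per library ranged from 11368447 to 15029582. The 8 defining genes of the adrenal cortex summed to 32711 to 71418 CPM (the usual depth-scaled count, relative to the TMM-scaled library total) in intact libraries and to 59303 to 90973 in ORX (3 higher and 0 lower of 8: Mc2r, Hsd3b1 and Cyp21a1), and the 8 kidney markers to at most 2.51 CPM, with Umod at 0 throughout. X-zone markers, of the inner cortical layer that male mice lose, summed to 28.7 to 40.2 CPM in intact and 831 to 2911 in ORX, and all 3 of them rose. The 12 medulla markers summed to 13374 to 32851 CPM in intact and 7499 to 18564 in ORX (0 higher and 3 lower of 12), the 8 adipocyte markers to 4395 to 11846 and 2802 to 12736 (none called of 8), and the 8 zona glomerulosa markers to 2602 to 4740 and 3063 to 3542 (4 lower of 8). Intact 3 had the least cortex signal and, among intact libraries, the most fat signal, and ORX 3 had the most fat signal of all. ORX 3 also had the highest medulla (18564 CPM), endothelial (917) and capsule and stroma (1449) marker sums of the ORX libraries. ORX 6 stood apart by transcript length: the median gene among its shortest 10% lay 0.67 above, and among its longest 10% 0.66 below, the other ORX libraries on the log2 scale.

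Of the 33 carriers 32 could be tested, and 5 changed: Slco2b1 and Slc22a18 rose in ORX, and Slc16a1, Slc22a23 and Slc2a13 fell (edgeR's quasi-likelihood test, two-sided, Benjamini-Hochberg adjusted p under 0.05 over all 14139 tested genes). Over all tested genes 6.21% were called, 3.03% as higher and 3.18% as lower. By sign alone 23 of the 32 were lower in ORX, where 48.7% of all tested genes were lower, and the median log2 fold change of the 32 was -0.25 against 0.01 over all tested genes. In 3 of the 32 every ORX library lay on one side of every intact library (Slc16a1, Slco5a1 and Slc22a18), a separation found in 5.28% of all tested genes. These shares describe the chosen genes. An unadjusted p under 0.05 was found for 14 of the 32, and for 3244 of all 14139 tested genes. The number of carriers called moved with single libraries. It was 1 without intact 5, 2 without intact 1 or without intact 2, and 3 without ORX 5. Without intact 3, intact 4 or ORX 3 it was 7. Calls over all tested genes moved too, from 878 to 408 without intact 5 and 447 without ORX 5. They were 483 without intact 1, 558 without intact 2, 1111 without intact 3, 897 without intact 4 and 1280 without ORX 3.

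**Figure D1:**
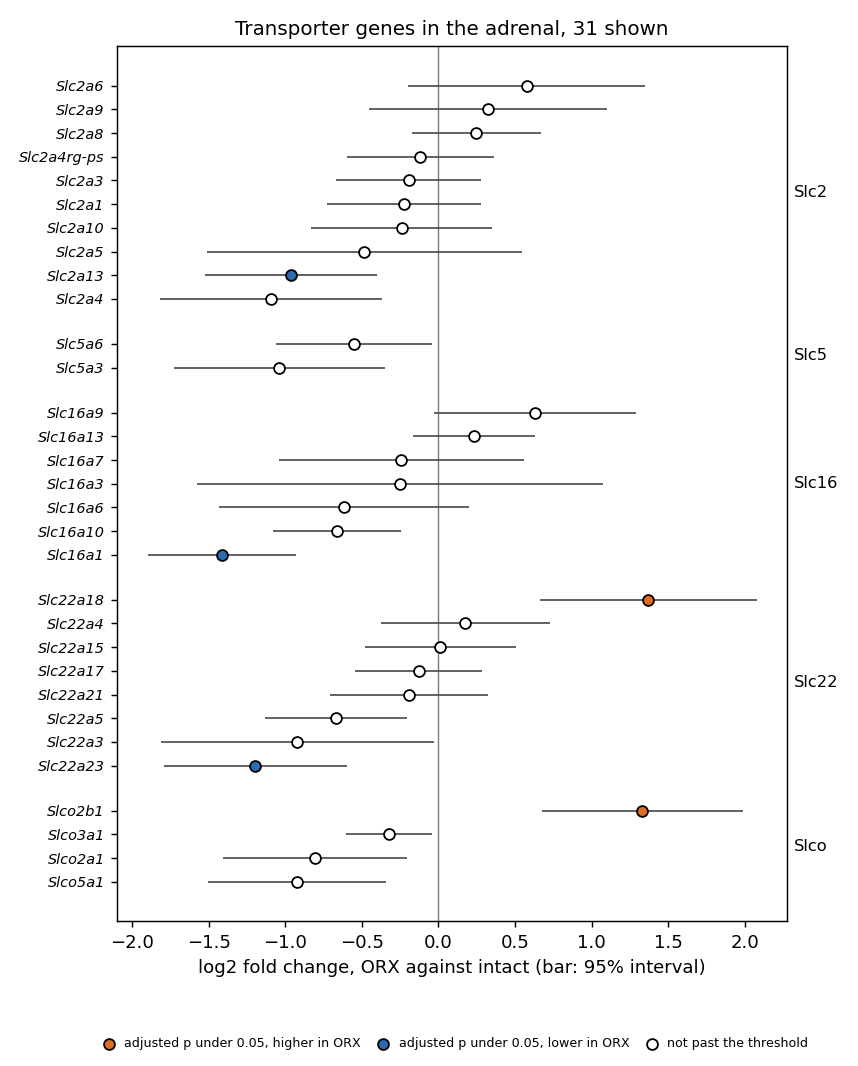
The circles give the log2 fold changes of 31 of the 32 tested carriers (horizontal axis, ORX against intact) with their 95% intervals, grouped by family and filled for genes past the threshold. Slc16a1 lies lowest at -1.41 and Slc22a18 highest at 1.37, and 22 of the 31 circles sit left of 0.

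By level per length of exon, Slc2a4 and Slc22a17 were among the most abundant carriers. Slc2a4, GLUT4, the insulin-responsive glucose carrier of fat and muscle, had an RPKM (CPM per kilobase of exon) of 54.8 ± 16.6 in intact and 25.8 ± 12.3 in ORX (SD, n = 5 and 6). Below Slc2a4, Slc22a17 had 23.1 ± 2.08 and 21.1 ± 6.96, and after it in order of the mean RPKM over all 11 libraries came Slc22a5, Slc5a6, Slc16a1, Slc2a1, Slco2b1, Slc2a8 and the pseudogene Slc2a4rg-ps. The order differed between the groups. In intact libraries Slc16a1 (20.2 ± 5.24) stood above Slco2b1 (5.44 ± 2.19), and in ORX Slco2b1 (13.7 ± 6.00) stood above Slc16a1 (7.58 ± 2.33). At the other end Slco5a1 had a mean RPKM of 0.182 in intact and 0.0952 in ORX, percentile 0.81 of the 12825 tested genes that have a length, where Slc2a4 was at percentile 90.7.

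**Figure D2:**
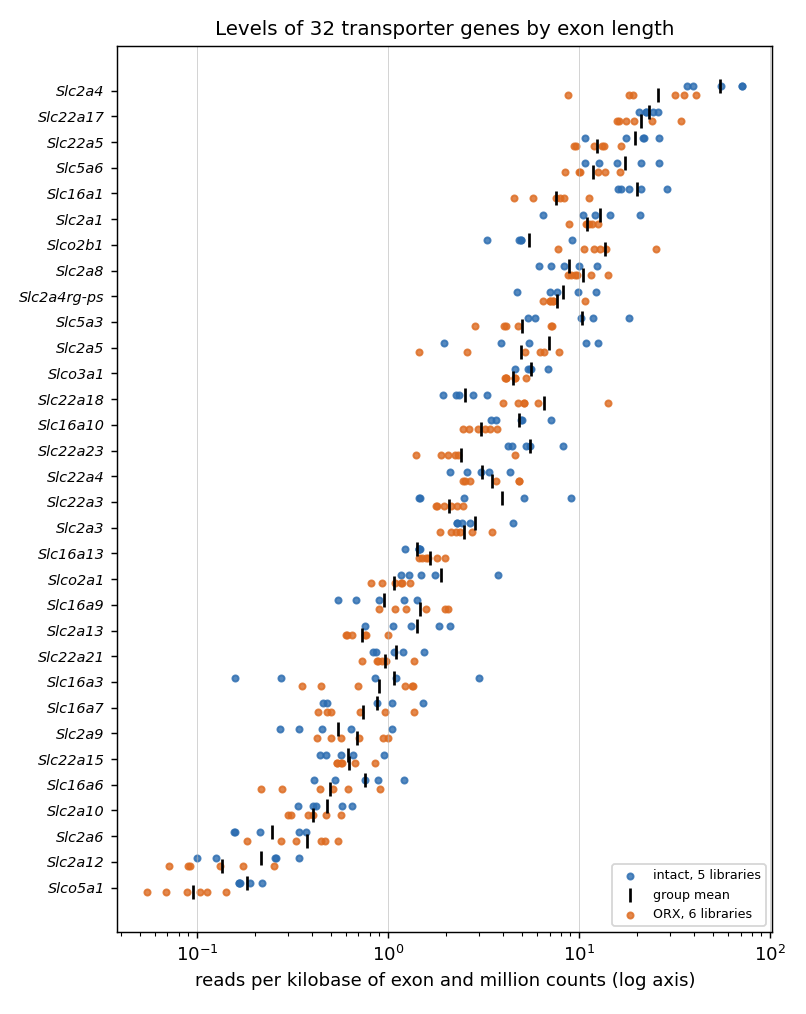
Each point is 1 library, with the level of 1 of 32 carriers as RPKM on a log axis, in blue for intact (n = 5) and orange for ORX (n = 6), and the black bar is the group mean. Slc2a4 leads with group means of 54.8 and 25.8, and the levels of Slco2b1 and Slc16a1 change places between the groups.

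Sequence before the start of transcription could be read for 23 of the 33 genes, 26 windows of 250 bases from RefSeq on GRCm38.p6. The windows of the genes with the smallest p in each direction are printed, 5′ to 3′ on the gene's strand, with matches to the motifs searched in capitals. That of Slc16a1 is chr3:104638414-104638663, plus strand. That of Slco2b1 is chr7:99695810-99696059, minus strand, before 1 of 3 listed starts, and the other 2 windows overlap annotated exons.
Slc16a1: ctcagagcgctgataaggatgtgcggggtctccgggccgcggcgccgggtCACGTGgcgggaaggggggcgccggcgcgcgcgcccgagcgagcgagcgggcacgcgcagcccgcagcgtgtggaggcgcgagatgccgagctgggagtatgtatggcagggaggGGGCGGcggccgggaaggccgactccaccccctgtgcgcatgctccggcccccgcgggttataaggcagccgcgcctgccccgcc
Slco2b1: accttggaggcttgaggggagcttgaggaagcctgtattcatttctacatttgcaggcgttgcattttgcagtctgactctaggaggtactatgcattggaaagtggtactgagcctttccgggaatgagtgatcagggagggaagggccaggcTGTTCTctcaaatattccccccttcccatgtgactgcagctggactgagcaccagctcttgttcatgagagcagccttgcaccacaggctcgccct

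The Slc16a1 window held an E-box, CACGTG, 200 bases before the start and a GC box, GGGCGG, 85 bases before it. The printed Slco2b1 window held TGTTCT, the reverse complement of the short motif AGAACA of androgen and glucocorticoid receptors, 96 bases before the start. The other 2 Slco2b1 windows held none of the motifs searched. Both strands were searched. AGAACA was found in 3 of the 26 windows (11.5%) and in 16.1% of all 32851 windows of that length, CACGTG in 2 (7.69% against 6.02%) and GGGCGG in 17 (65.4% against 32.7%). The full receptor palindrome (GNACA and TGTNC with 3 bases between them), which can overlap AGAACA, and AAGGTCA, the motif of the steroidogenic factor NR5A1, were in none of the 26 and in 0.387% and 4.08% of all windows. The comparison windows were not limited to genes with counts here, while the 26 came from genes past the count limit. The shares are therefore not like for like. A match is a run of letters and not a bound site.

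Among the monocarboxylate carriers Slc16a1 fell. It encodes MCT1, which moves lactate, pyruvate and ketone bodies together with a proton. Slc16a1 (chromosome 3, 104638668 to 104658462, plus strand, GRCm38) stood at 81.0, 127, 70.3, 73.5 and 93.9 CPM in intact 1 to 5, and in ORX from 20.2 (ORX 2) through a median of 34.4 to 50.1 (ORX 3). Every ORX library lay below every intact library. The log2 fold change was -1.41 ± 0.23 (SE; means 89.2 ± 23.2 and 33.5 ± 10.3 CPM, SD; edgeR adjusted p = 0.00303), a level 2.66-fold higher in intact. Without any 1 library it stayed past the threshold, with an adjusted p of at most 0.0116 (without intact 5). ORX 3, the highest of its group for Slc16a1, also had the highest adipocyte marker sum (12736 CPM), and intact 2, the highest of all for Slc16a1, had the lowest of the intact libraries (4395). ORX 3 was the highest of its group for medulla, endothelial and stromal markers too. The part of fat or of any other tissue in the result was not tested. In whole glands fewer cells of a type and less RNA per cell cannot be told apart.

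No other member of the Slc16 family passed. Slc16a10, TAT1, a carrier of aromatic amino acids, was the nearest (log2 -0.66 ± 0.19; edgeR adjusted p = 0.0601). It stood at 37.1, 52.5, 25.3, 26.9 and 36.5 CPM in intact 1 to 5 and at 18.1 to 27.2 CPM in ORX (median 22.7), with intact 3 and 4 inside the ORX range. Without intact 3 it passed, as it did without intact 4 or ORX 3 (edgeR adjusted p down to 0.0298). Slc16a3, MCT4, the lactate exporter of glycolytic cells, ranged from 0.84 to 15.9 CPM within the intact group and from 1.88 to 7.16 in ORX, so its interval was wide (-1.58 to 1.07). Slc16a7, MCT2, and Slc16a6 were at -0.24 and -0.61, Slc16a13 at 0.23, and Slc16a9, MCT9, at 0.63 ± 0.31 (edgeR adjusted p = 0.239). Slc16a7 was above 0 without intact 3 (0.04).

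MCT1 reaches the cell surface with an accessory protein, basigin (Bsg) or embigin (Emb). Of 10 tested genes in the list of partners and regulators of glucose and lactate carriers, Emb rose, Tbc1d1 fell and 8 did not pass. Emb went from 16.5 ± 2.65 to 61.9 ± 29.4 CPM (SD; log2 1.91 ± 0.30; edgeR adjusted p = 0.00303), also without any 1 library (adjusted p up to 0.0134). Bsg was at 636 ± 50.6 and 637 ± 107 CPM (log2 0.00 ± 0.15). Slc16a1 and Emb thus moved in opposite directions, while the means of Bsg differed by less than the spread within either group. Tbc1d1, a regulator of GLUT4 traffic, went from 41.0 ± 22.9 to 18.7 ± 2.55 CPM (log2 -1.13 ± 0.29; edgeR adjusted p = 0.0360). Its call ended without any 1 of 7 libraries, intact 1, 2 or 5 or ORX 1, 2, 4 or 5 (up to 0.0793, without ORX 5), and with limma voom (0.0754). In the list of glycolysis and lactate dehydrogenase 1 of 16 tested genes passed, the neuronal enolase Eno2, which fell (log2 -0.90 ± 0.20; edgeR adjusted p = 0.0198; 0.0594 without intact 1, and lost without ORX 5 too). Among the 16 were Gapdh (7.75 CPM in intact, 7.87 in ORX), Pgk1 (8.84 and 8.48) and Pgam1 (14.2 and 17.5), where Aldoa had 2288 and 1918. Eno1 was near 0 and Pkm was absent from the count table. The reason for these low counts was not tested, and those genes may not have been measured in full. Ldha, the subunit that favours making lactate, was at 354 ± 81.5 CPM in intact and 236 ± 88.5 in ORX (log2 -0.59 ± 0.25; edgeR adjusted p = 0.185).

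Glucose carriers of the Slc2 family did not pass. Slc2a4 stood at 138, 127, 247, 192 and 249 CPM in intact 1 to 5 and from 30.3 (ORX 2) through a median of 88.8 to 143 (ORX 3) in ORX. The groups overlapped only through ORX 3, which was above intact 1 and 2. Its log2 fold change was -1.09 ± 0.34 (95% interval -1.81 to -0.36; edgeR adjusted p = 0.0725). Slc2a4 marks fat and muscle in other tissues, and intact 3 and 5 were the highest of their group for it and for the adipocyte marker sum (11846 and 9148 CPM of fat markers), as ORX 3 was the highest and ORX 2 the lowest of theirs (12736 and 2802). Other libraries did not follow that order: intact 1 had more fat signal than intact 4 (8173 and 6776) and less Slc2a4, and ORX 3, with the most fat signal of all, had less Slc2a4 than intact 4. All 8 adipocyte markers were lower in ORX by sign, none of them past the threshold, and their part in Slc2a4 was not tested. Without ORX 3 Slc2a4 passed (edgeR adjusted p = 0.0367).

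Slc2a1, GLUT1, the basal glucose carrier of most cells, was at 45.3 ± 18.8 CPM in intact and 38.8 ± 4.40 in ORX (log2 -0.22, 95% interval -0.73 to 0.28; edgeR adjusted p = 0.609). Intact 2 was the highest at 73.4 CPM and intact 3 the lowest at 22.7, a range that enclosed all ORX libraries. Slc2a3, GLUT3, of high affinity, was at 20.6 ± 6.85 and 18.0 ± 4.18 CPM (log2 -0.19, interval -0.67 to 0.28), with intact 3 at 32.7 and the other intact libraries at 16.5 to 19.4. The sign of both values turned when 1 library was left out, to 0.02 for Slc2a1 without intact 2 and for Slc2a3 without intact 3. Slc2a5, the fructose carrier, spread from 6.71 to 42.7 CPM in intact and from 4.93 to 26.6 in ORX, with no test past the threshold (log2 -0.48 ± 0.48). Slc2a8, an intracellular hexose carrier, and Slc2a9, which carries urate, were at 0.25 and 0.32, Slc2a6 at 0.58 and Slc2a10 at -0.24 (edgeR adjusted p 0.366 or above).

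Of the inositol carriers, Slc2a13 fell and Slc5a3 did not pass. Slc2a13, HMIT, takes up myo-inositol with a proton (chromosome 15, 91267696 to 91573261, minus strand). It stood at 11.1, 17.6, 8.88, 6.36 and 15.5 CPM in intact 1 to 5 and from 5.02 (ORX 4) through 5.86 (median) to 8.33 (ORX 1) in ORX, so that intact 4 lay within the ORX range. The log2 fold change was -0.96 ± 0.26 (means 11.9 ± 4.64 and 6.10 ± 1.24 CPM; edgeR adjusted p = 0.0447). This call was the weakest of the 5. It ended without any 1 of 8 libraries, intact 1, 2 or 5 or ORX 2, 3, 4, 5 or 6 (up to 0.127, without intact 5), and with library totals, limma voom or intact 3 and ORX 6 left out together.

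Slc5a3, SMIT1, takes up myo-inositol with sodium as cells adjust to osmotic load. It stood at 129, 199.9, 64.4, 58.7 and 111 CPM in intact 1 to 5 and from 31.3 (ORX 6) through 48.9 to 78.4 (ORX 3) in ORX (log2 -1.04 ± 0.32; edgeR adjusted p = 0.0719). As for Slc2a13, intact 2 was highest and intact 4 lowest in its group. Slc5a3 passed without intact 3, intact 4 or ORX 3 (adjusted p down to 0.0389). Its exons overlap those of Mrps6 and Gm49711 on the same strand, so its counts may hold reads of those genes. In the list of inositol and creatine metabolism 1 of 8 tested genes passed: the creatine carrier Slc6a8 fell (log2 -0.63 ± 0.16; edgeR adjusted p = 0.0359; means 161 ± 40.4 and 104 ± 9.75 CPM). That call ended without any 1 of 7 libraries, intact 1, 2 or 5 or ORX 1, 2, 4 or 5 (up to 0.0933, without intact 1). Slc5a6, the sodium-driven carrier of biotin and pantothenate, was at 69.3 ± 25.3 and 47.3 ± 11.7 CPM (log2 -0.55 ± 0.24, edgeR adjusted p = 0.183). It was highest in intact 3 (105) and intact 5 (84.5), the intact libraries with the most fat signal. In ORX it was highest in ORX 3 and lowest in ORX 2, as the fat signal was. Intact 4 had more fat signal than intact 2 and less Slc5a6 (43.1 and 50.9 CPM). The part of fat was not tested. Slc5a6 overlaps Atraid on the other strand.

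**Figure D3:**
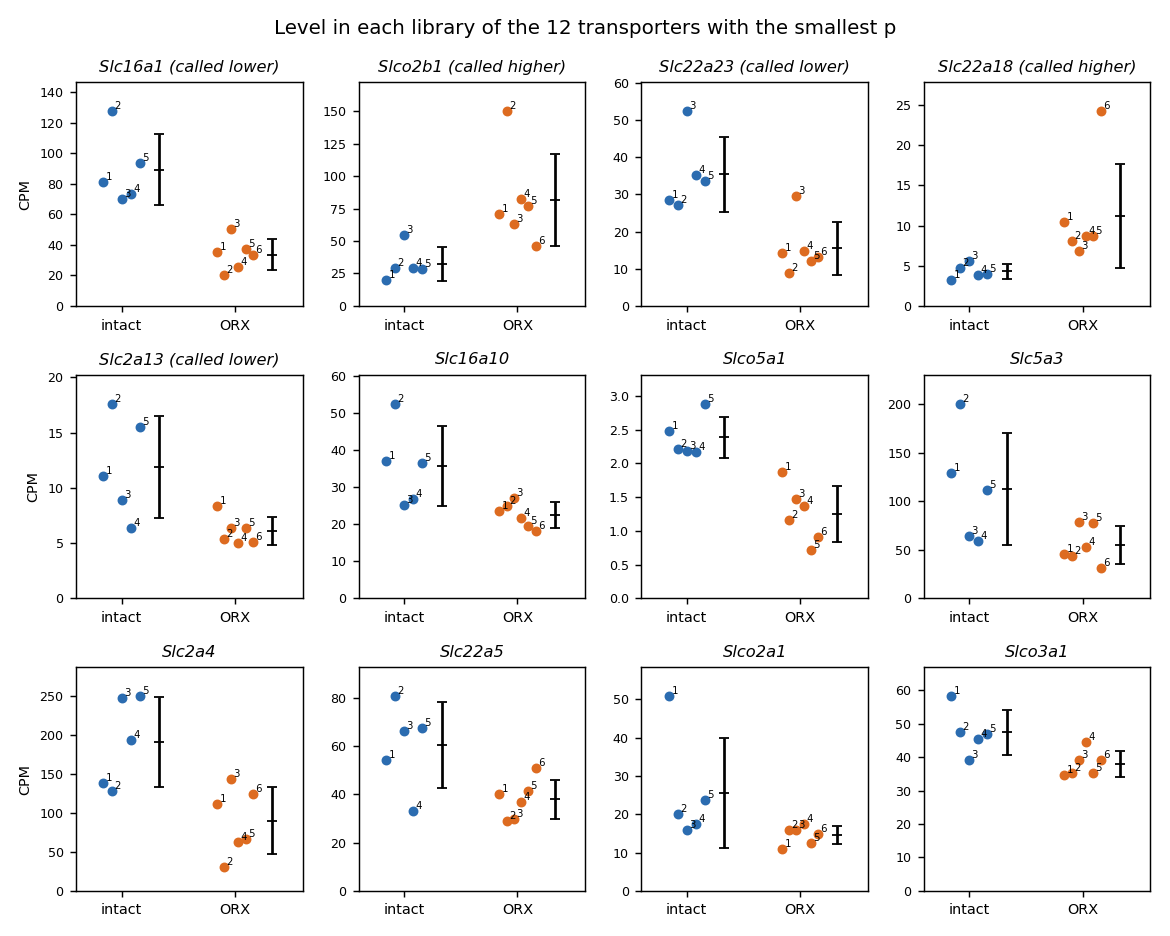
CPM on linear axes from 0 for the 12 carriers with the smallest p, 1 point per library with its number (blue intact, orange ORX) and the mean with SD at the right of each group. Slc16a1, Slc22a18 and Slco5a1 separate the groups, while the single high points ORX 2 in Slco2b1, ORX 6 in Slc22a18, ORX 3 in Slc22a23 and intact 1 in Slco2a1 stand off from their groups.

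Of the organic anion polypeptides Slco2b1 rose. The carrier it encodes, OATP2B1, takes up sulfated steroids, among them oestrone sulfate and dehydroepiandrosterone sulfate. Slco2b1 (chromosome 7, 99657804 to 99711340, minus strand) stood at 19.7, 29.6, 54.5, 29.5 and 28.7 CPM in intact 1 to 5 and from 46.3 (ORX 6) through a median of 74.1 to 149.9 (ORX 2) in ORX. Only intact 3 and ORX 6 overlapped, and the other ORX libraries were above every intact library. The log2 fold change was 1.33 ± 0.30 (means 32.4 ± 13.0 and 81.6 ± 35.7 CPM; edgeR adjusted p = 0.0222), a 2.52-fold rise. Its call ended without intact 1, 2 or 5 (up to 0.0643, without intact 5), and it was 1.71 with an adjusted p of 0.00348 without intact 3 and ORX 6 together. Macrophages express Slco2b1 in other tissues, and the 7 macrophage markers in the table summed to 288 to 643 CPM in intact and 366 to 757 in ORX (0 higher and 1 lower of 7), highest in ORX 4. ORX 2, with the most Slco2b1, had 544, below ORX 4 and above the other ORX libraries (366 to 532). The part of macrophages in Slco2b1 was not tested. Exons of Gm15635 and Gm34280 lie on the other strand of Slco2b1, and with no strand setting given their reads cannot be told apart.

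None of the other Slco genes passed. Slco5a1, a carrier of unknown substrate, was at 2.39 ± 0.30 CPM in intact and 1.25 ± 0.41 in ORX (log2 -0.92 ± 0.27; edgeR adjusted p = 0.0601). Its intact libraries lay between 2.18 and 2.88 CPM and its ORX libraries between 0.72 and 1.87, so the groups did not overlap although the test was not passed. It passed without ORX 1 (adjusted p = 0.0465). Slco2a1, the prostaglandin carrier, was at 50.7 CPM in intact 1 and 15.8 to 23.8 in the other intact libraries, against 11.0 to 17.6 in ORX (log2 -0.81 ± 0.28; edgeR adjusted p = 0.105). Without intact 1 its log2 fold change was -0.40 (adjusted p = 0.267). Intact 1 also had the highest endothelial marker sum (1109 CPM, against 736 to 1038 in the other intact libraries and 745 to 917 in ORX; none called of 8). Its medulla marker sum stood further off (32851 CPM, against 13374 to 19616 in the other intact libraries and 7499 to 18564 in ORX). The part of vessels or of medulla was not tested. Slco3a1 was at 47.4 ± 6.82 and 38.0 ± 3.81 CPM (log2 -0.32 ± 0.13; edgeR adjusted p = 0.160). In the list of prostaglandin synthesis and breakdown none of 10 tested genes passed, and in that of steroid sulfation and desulfation none of 5.

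In the Slc22 family Slc22a18 rose, Slc22a23 fell and 6 did not pass. Slc22a18, an organic cation carrier encoded in an imprinted region (chromosome 7, 143473736 to 143499334, plus strand), stood at 3.28, 4.76, 5.63, 3.85 and 4.02 CPM in intact 1 to 5 and from 6.78 (ORX 3) through a median of 8.74 to 24.2 (ORX 6) in ORX. Every ORX library was above every intact library. The log2 fold change was 1.37 ± 0.33 (means 4.31 ± 0.91 and 11.2 ± 6.49 CPM; edgeR adjusted p = 0.0277). ORX 6, the library with raised short transcripts, was far above the others, and the exons of Slc22a18 cover 1699 bases, the shortest of the 33. Without ORX 6 the log2 fold change was 0.99 and the adjusted p 0.0158, so the rise was smaller and still called. The call ended without intact 1, 2, 4 or 5 or ORX 1 (up to 0.0735, without intact 5).

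Slc22a23, a member with no settled substrate (chromosome 13, 34179158 to 34345182, minus strand), stood at 28.6, 27.1, 52.3, 35.3 and 33.6 CPM in intact 1 to 5 and from 8.89 (ORX 2) through a median of 13.7 to 29.5 (ORX 3) in ORX. ORX 3 lay above intact 1 and 2, and the other ORX libraries lay below every intact library. The log2 fold change was -1.19 ± 0.28 (means 35.4 ± 10.1 and 15.5 ± 7.19 CPM; edgeR adjusted p = 0.0242). As for Slc2a4, intact 3 and ORX 3, the libraries with the most fat signal in their groups, were high. ORX 3 also had the most medulla, endothelial and stromal signal of its group, where intact 3 had the least medulla and endothelial signal of its own. The part of any of these tissues was not tested. Without intact 3 the value was -1.02 (adjusted p = 0.0417), and the call ended without intact 5, ORX 1 or ORX 5 (up to 0.0606, without ORX 5) and without intact 3 and ORX 6 together (0.0580).

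Slc22a5, OCTN2, which brings carnitine into cells for fatty acid oxidation, was at 60.3 ± 17.8 CPM in intact and 38.0 ± 8.17 in ORX (log2 -0.67 ± 0.21; edgeR adjusted p = 0.0816). Intact 4, at 33.1 CPM, was the one intact library inside the ORX range of 29.0 to 50.8, and without it Slc22a5 passed (adjusted p = 0.0178). Its neighbours on chromosome 11, Slc22a21 and Slc22a4 (OCTN1, a carrier of ergothioneine), were at -0.19 ± 0.24 and 0.18 ± 0.26. These 3 genes resemble each other in sequence, so how reads were divided among them is uncertain. In the list of carnitine synthesis and carnitine-dependent import 1 of 9 tested genes passed: Cpt1a, the gate of fatty acids into mitochondria, rose (means 337 ± 68.1 and 574 ± 93.7 CPM; log2 0.77 ± 0.17; edgeR adjusted p = 0.0219; lost without ORX 2, 4 or 5, up to 0.0571).

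Slc22a3, OCT3, the extraneuronal carrier of catecholamines that corticosteroids inhibit, spread widely within the intact group. It stood at 6.56, 6.63, 40.9, 23.3 and 11.3 CPM in intact 1 to 5 and between 8.05 and 11.1 in ORX (log2 -0.92 ± 0.41; edgeR adjusted p = 0.202). Intact 3, 4 and 5 were above every ORX library and intact 1 and 2 below every one. Without intact 3 the log2 fold change was -0.36 (adjusted p = 0.518), and exons of Plg, a gene of liver, lie on its other strand. In the list of monoamine uptake and breakdown 1 of 8 tested genes passed, the vesicular carrier Slc18a2 of the medulla, which fell (log2 -1.44 ± 0.24; edgeR adjusted p = 0.00411). Slc22a17 was at 104 ± 9.41 and 95.5 ± 31.4 CPM, with ORX 6 at 153 and the others of its group at 71.4 to 108, and Slc22a15 at log2 0.01 (interval -0.48 to 0.50).

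Thyroid hormone enters cells through carriers of the Slc16 and Slco families, and of the 9 tested genes of its deiodination, binding and other carriage 2 rose, 1 fell and 6 did not pass. The receptor Thrb, also an X-zone marker, rose (log2 1.38 ± 0.31; edgeR adjusted p = 0.0198; lost without intact 1, 2 or 5 or ORX 2, up to 0.0555). Slc7a5, the large neutral amino acid carrier, rose with a log2 fold change of 0.81 ± 0.16 (84.4 ± 12.7 CPM in intact, 148 ± 29.8 in ORX; edgeR adjusted p = 0.0124). Crym, which binds thyroid hormone in the cytosol, was the gene of these lists with the smallest p, and it fell (19.8 ± 4.64 CPM in intact, 5.49 ± 2.42 in ORX; log2 -1.85 ± 0.27; edgeR adjusted p = 0.00154). The calls of Slc7a5 and Crym held without any 1 library.

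Among the 10 tested efflux pumps, which carry organic ions and drugs out of the cell, 2 rose and 1 fell. Slc47a1, MATE1, the proton-coupled exporter of organic cations, rose by 2.07 ± 0.38 on the log2 scale (edgeR adjusted p = 0.00731), also without any 1 library. Its level was low, at 0.42 ± 0.29 CPM in intact and 1.84 ± 0.41 in ORX. It had 3 to 14 counts in an intact library and 16 to 32 in an ORX library. Of the intact libraries only intact 3 had 10 or more counts. The gene thus entered the test through the group where it was high, and the size of its rise is uncertain. Abcb1a, a P-glycoprotein gene, rose by 0.74 ± 0.18 (35.0 ± 7.13 CPM in intact, 58.4 ± 11.7 in ORX; edgeR adjusted p = 0.0322), a call lost without any 1 of 8 libraries, all but intact 2, ORX 3 and ORX 6 (up to 0.0874, without ORX 2). Abcc5, a cyclic nucleotide pump, fell (log2 -0.57 ± 0.15; edgeR adjusted p = 0.0364), a call lost without intact 1, 2 or 3 or ORX 1, 2, 4 or 5 (up to 0.0880, without intact 2), with library totals (0.0558) and without intact 3 and ORX 6 together (0.0584). Abcb1a and its close relative Abcb1b, which had far more counts (900 ± 420 CPM in intact, 1680 ± 413 in ORX; log2 0.90 ± 0.29; edgeR adjusted p = 0.0860), may share reads. Over the 9 lists, which were chosen with the results of these samples known, 6 of 85 tested genes rose and 6 fell (14.1% called, against 6.21% of all tested genes). The counts of single lists, 0 to 3 called of 5 to 16 tested, stand against the same 6.21%.

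**Figure D4:**
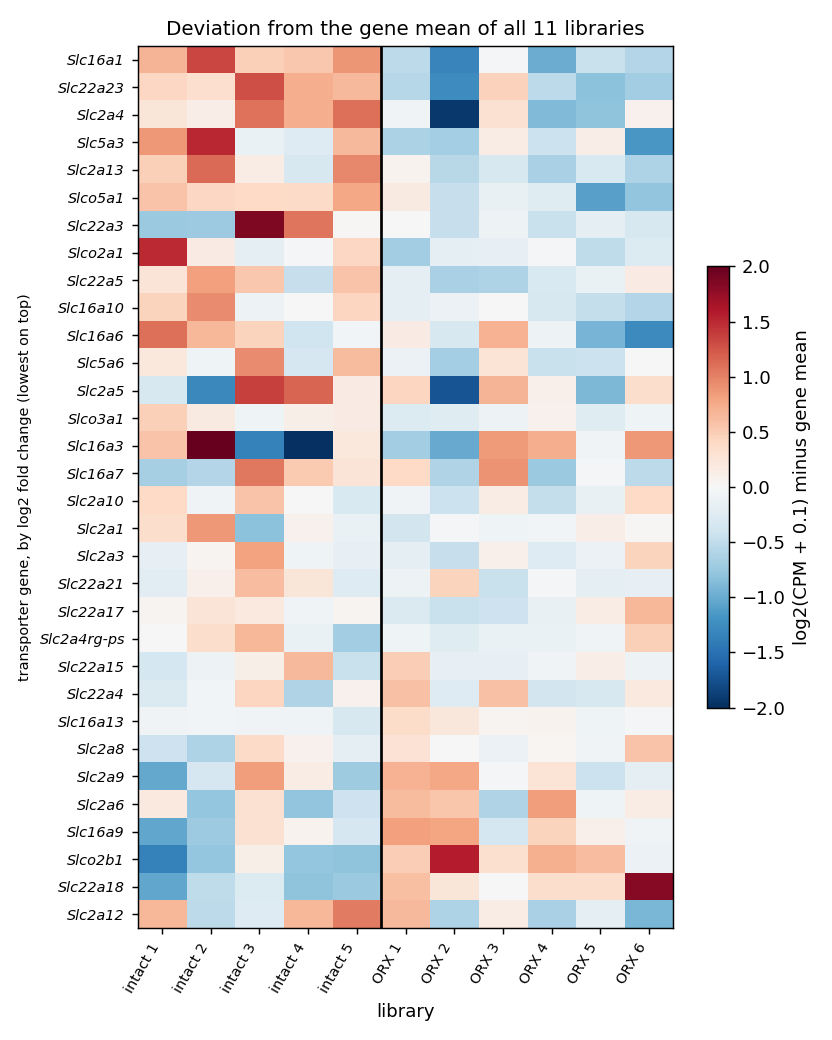
Colour gives log2(CPM + 0.1) minus the gene's mean over all 11 libraries (columns, intact left of the line) for 32 carriers (rows, lowest log2 fold change on top, the untested Slc2a12 last). Over all 33 carriers intact 3 was the highest of the 5 intact libraries for 16, and ORX 2 the lowest of the 6 ORX libraries for 11.

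Of the 48 symbols below the count limit, 11 had no count in any library and 37 had some, 26 of these with no library at 10 counts. Just inside the limit lay Slc2a12, with 10 or more counts in 5 libraries, and Slc2a6, with 7. Slc2a12 stood between 0.42 and 1.44 CPM in intact and between 0.30 and 1.08 in ORX, and the filter of the test left it out. Slc2a6 reached 10 counts in 2 intact and 5 ORX libraries. Just outside, with 2 such libraries each, were Slc22a2, Slc22a8, Slc16a12, Slco1b2 and Slc5a5. Slc5a5, the iodide carrier of the thyroid, had its counts of 10 and 12 in intact 1 and 2. Slco4a1 had 51 counts, 20 of them in intact 4.

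Of the carriers known from liver, Slco1b2 and Slc2a2 had most of their counts in ORX 4 and ORX 6. Slco1a4 did not, with 31 counts, 3 to 5 of them in each ORX library and 7 in the intact group. Slco1b2, a bile acid and bilirubin carrier of liver cells, had 35 counts, 13 in ORX 4, 13 in ORX 6, 1 to 3 in each other ORX library and 2 in the intact group. Slc2a2, GLUT2, had 20 counts, 10 in ORX 4, 7 in ORX 6, 2 in ORX 1 and 1 in intact 4. ORX 4 and ORX 6 were the libraries with the highest sums of the 7 liver markers, 289 CPM in ORX 6 and 107 in ORX 4, against 1.92 to 50.7 in intact and 2.53 to 48.3 in the other ORX libraries (none called of 5 tested). The part of liver RNA in these counts was not tested. Among carriers known from kidney, Slc22a8, OAT3, had 79 counts, at most 14 in a library, and Slc22a2, OCT2, had 75, of which 26 in intact 3. Slc22a6, OAT1, and Slc22a12, URAT1, had at most 3 counts in a library, and Slc5a12 and Slco4c1 were not detected at this depth.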

How the data were processed

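The authors deposited raw read counts per gene symbol for adrenal glands of 5 intact and 6 ORX samples. Of tools and builds, bcl2fastq 1.8.4, Subread 1.5.1 and mm10 are listed in the submitters' processing notes, without roles. For annotation, strand setting and multi-mapping reads the sources used here give nothing, and the labels' protocols cite both a stranded and an unstranded library guide. The table holds 2 identical copies of itself, and the first was used. No label ties each sample to a separate animal. The p-values therefore reflect only how far these samples spread, and that spread may be technical.

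Genes passing filterByExpr (14139) entered edgeR 4.0.16 in R 4.3.3 (TMM scaling, quasi-likelihood test) with no covariate and with Benjamini-Hochberg adjustment over all of them. CPM are relative to TMM-scaled library sizes. GENCODE M21 (assembly GRCm38, also called mm10) gave exon lengths and positions. On simulated counts 95.4% of 65 genes changed 4-fold, 50.7% of 67 changed 2-fold and 7.58% of 66 changed 1.5-fold were recovered among 14002 genes. The simulation gave 105 calls where the real comparison gave 878, so these rates need not hold for these data. Alternatives were other scalings and filters, DESeq2 1.42.0, limma voom (limma 3.58.1), a stricter threshold, the sample number as a block, and leaving out libraries. Genes named were all called carriers, the nearest misses, a fixed set of carriers, the most abundant, those beside the count limit, and called genes of 9 related lists. Ldha, Bsg, Abcb1b and the remaining carriers were added after their values were seen. The results of 2 carriers are not reported here, though both remain in the counts. Members and lists were chosen with earlier results of these data known.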

Additional observations from a re-analysis of the deposited data

Results flagged for a closer look

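Each of 33 carriers was examined in both groups for a single library far from the rest of its group, by the gap to the nearest other library over the group's range. Of 66 such groups 8 held one, and chance alone gives about 5% per group. In the intact group, intact 3 was high for Slco2b1 (54.5 CPM, next 29.6) and Slc2a3 (32.7, next 19.4), intact 1 was high for Slco2a1 (50.7, next 23.8), and intact 5 was low for Slc16a13 (3.18, next 3.77). Among ORX libraries, ORX 6 was high for Slc22a18 (24.2 CPM, next 10.4) and Slc2a4rg-ps (31.9, next 21.7), ORX 3 for Slc22a23 (29.5, next 14.8) and ORX 2 for Slco2b1 (149.9, next 82.4).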

How the results depend on the processing

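Over all tested genes 878 were called, 1630 with DESeq2, 416 with the sample number as a replicate block and 260 at an adjusted p under 0.01. Carriers called higher numbered 2, and 1 with the block and 0 at 0.01. Carriers called lower numbered 3, and 8 with DESeq2 and 1 at 0.01. DESeq2 added Slc16a10, Slco5a1, Slc5a3, Slc2a4 and Slc22a5. Of the related genes 12 were called, 21 with DESeq2 and 4 at 0.01. Leaving out 1 library in turn gave 408 to 1280 calls over all genes, 0 to 2 carriers higher, 1 to 6 lower and 6 to 19 related genes. With the block Slc22a18 and Slc2a13 were lost (edgeR adjusted p 0.0814 and 0.138) and Slc2a4 gained (0.0402). Number 6 occurs only in ORX, so with the block ORX 6 has no part in the group difference. The log2 fold change of Slc22a18 was 0.997 with the block and 0.989 without ORX 6. Of the related genes the block ended the calls of Slc47a1 (0.0553), Slc6a8 (0.0861), Tbc1d1 (0.115) and Abcc5 (0.134). Same-numbered samples correlated between -0.28 and 0.18 in their deviations from the group means, and only intact 5 correlated best with its own number, so the numbers are not taken as pairs. Scaling moved the median of all genes to at most 0.05. Signs of the log2 fold change turned for values near 0. With 1 library left out Slc2a1 ranged from -0.41 to 0.016 (above 0 without intact 2), Slc2a3 from -0.32 to 0.022, Slc2a4rg-ps from -0.27 to 0.051 and Slc16a7 from -0.51 to 0.044 (each above 0 without intact 3). On the same basis Slc16a3 ranged from -0.55 to 0.59 (above 0 without intact 2) and Slc22a15 from -0.11 to 0.21 (below 0 without intact 1, 2 or 5 or ORX 1 or 5). Slc16a7 was at 0.14 without intact 3 and ORX 6, Slc16a3 at 0.26 with limma voom and 0.034 with the replicate block, and Slc22a15 at -0.0034 without a filter. The cause of these changes was not tested. The depth limits genes near 1 CPM, such as Slc2a6, Slco5a1 and, of the related genes, Slc47a1.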
